A study of Mus musculus with 12 samples.

Results

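The serpin genes of the mouse were followed in the livers of ob/ob mice given ethionine and of ob/ob mice on chow alone. The members were chosen by name. They are the protein-coding genes whose symbol places them in serpin clades A to I, without antithrombin, heparin cofactor II, antiplasmin and C1 inhibitor (Serpinc1, Serpind1, Serpinf2 and Serping1), and with any count in at least 6 of the 12 libraries. Of 68 serpin symbols in the count table, 7 were not protein coding in the GENCODE M21 annotation, and the 4 named genes were left out. The 57 genes that remained gave 35 members, out of 56205 genes in the table. Clade A held 22 of the members, clade B 8, clade E 2 and clades F, H and I 1 each. The other 22 genes had counts in fewer than 6 libraries, and 11 of those were at 0 counts in every library.

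Serpins are proteins of a common fold, and most inhibit proteases. A typical inhibitory serpin offers its reactive center loop as bait. When the protease cuts the loop, the serpin changes shape and holds the enzyme in a dead-end complex. Clade A serpins are mostly secreted, and the hepatocyte is the main source of several of them in plasma. Clade B serpins lack a classical signal peptide and mostly act inside cells. Some members inhibit nothing and instead carry hormones (Serpina6, Serpina7) or fold collagen (Serpinh1). Humans have 1 antitrypsin gene and 1 antichymotrypsin gene, whereas the mouse carries a row of copies of each, named Serpina1a onward and Serpina3a onward.

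The study compared the livers of mice labelled OBOB_Fibrotic with those of mice labelled OBOB_FLO, 6 males per group according to the series design, with 1 poly(A)-selected library per mouse from whole liver. All 12 mice were leptin-deficient ob/ob animals on standard chow, so the comparison shows ethionine in obese mice and holds no lean group. OBOB_Fibrotic mice also received ethionine, an ethyl analog of methionine. It is given as 0.165% DL ethionine in drinking water for 2 weeks in the design, as an injection of 0.15% in the growth protocol, and as 0.15% for 1 week by drinking water in the study's methods, so that dose, route and duration are not settled. OBOB_FLO mice received none. Total counts ran from 17815568 to 24814263 per library. FLO replicate 3 went against the stated sex. It held 3773 counts of Xist and 4 of Ddx3y, where the other 11 held 0 to 4 and 556 to 977, so values without it are given where it changes a call or a sign. Hepatocyte markers were abundant in all 12 libraries, with a summed level of 51691 to 88815 CPM (counts scaled to the normalized library size) in fibrotic and 77883 to 92849 CPM in FLO libraries. Of 8 stellate cell markers, 1 was called higher, Lrat, and none lower. The collagen genes among them were not called. Col1a1 was at a mean of 23.3 CPM in fibrotic and 27.1 CPM in FLO libraries, and Col3a1 at 51.9 and 53.1 CPM. The word fibrotic is taken from the label. Because RNA came from whole liver, fewer cells of a type and less RNA per cell cannot be told apart.

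The Serpina1 copies are shown first because their near identity limits what the counts of a single copy mean. Over 1242 shared coding bases, the 5 copies were identical to each other at 96.3% to 98.5% of positions, with Serpina1a and Serpina1c the closest pair. Only 86 positions differed in any copy. The 60-base stretch with most differences ran from coding base 1102 to 1161 and held 18 of them. It lies in the part that codes for the reactive center loop, which sets the protease that a serpin traps. The stretch is given for each copy from the GENCODE M21 transcripts, 5′ to 3′, with every position that differed in any copy in capitals.
Serpina1a: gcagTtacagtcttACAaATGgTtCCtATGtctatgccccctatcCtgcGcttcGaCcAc
Serpina1b: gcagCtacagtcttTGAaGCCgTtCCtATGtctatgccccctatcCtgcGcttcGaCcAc
Serpina1c: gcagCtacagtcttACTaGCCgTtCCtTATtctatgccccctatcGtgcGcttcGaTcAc
Serpina1d: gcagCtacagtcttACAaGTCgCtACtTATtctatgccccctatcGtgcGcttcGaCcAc
Serpina1e: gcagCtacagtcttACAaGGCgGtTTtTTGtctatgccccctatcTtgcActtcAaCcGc
Against Serpina1a, 6 of these bases differed in Serpina1b, 10 in Serpina1c, 9 in Serpina1d and 12 in Serpina1e. Outside such stretches the copies shared long runs. Of all 50-base words in its longest transcript, Serpina1c had 25.8% that occurred in no other gene's transcript, Serpina1a 32.6%, Serpina1d 49.1%, Serpina1b 64.2% and Serpina1e 64.4%. The Serpina3 copies were less alike, with a median coding identity of 75.2% over 45 pairs of the 10 copies among the members. Unlike those of Serpina1, their frames were not cut to a shared length and ran from 747 bases (Serpina3g) to 1359 (Serpina3a). Gaps counted as differences, which lowers this median. The closest Serpina3 pair was Serpina3k and Serpina3m at 90.9%, which had 86.0% and 80.9% unique words. By contrast, all 50-base words of Serpina5, Serpina6, Serpina7, Serpina12, Serpine2, Serpinf1 and Serpinh1 were unique. Serpina11 had 56.1% unique words and shared the rest with the gene model Gm28577. In the annotation Serpina1d lies wholly within the span of Serpina1b, and Serpina3k within that of Serpina3m, on the same strand. How the counting divided shared reads is not given in the sources used here. Values of single Serpina1 and Serpina3 copies and of Serpina11 are therefore uncertain. For the Serpina1 and Serpina3 copies, family sums are given beside them.

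Of the 35 members, 28 passed the low-count filter and were tested. A gene was called when its adjusted p from the edgeR quasi-likelihood test was 0.01 or less and its log2 fold change (log2FC, fibrotic over FLO) was beyond 0.5 in either direction. Of the tested members, 13 were called, or 46.4%, against 29.9% of all 13416 genes tested. The 5 called higher were Serpina5, Serpinb9, Serpinb6a, Serpina3n and Serpina3m, where 15.9% of all genes were called higher. The 8 called lower were Serpina11, Serpina12, Serpina1a, Serpinb8, Serpina6, Serpina1c, Serpina3k and Serpina1d, where 14.0% of all genes were called lower. The CPM of the groups did not overlap for 12 of the 28, against 30.4% of all genes. The median log2FC of the tested members was −0.15, that of all tested genes 0.03. By clade, 3 of 18 tested members of clade A were called higher and 7 lower (median log2FC −0.49), and 2 of 5 in clade B were called higher and 1 lower (median log2FC 0.59). None of the 5 tested members of clades E, F, H and I was called. Without FLO replicate 3, 4 members were called higher and 8 lower, and the call lost was that of Serpina3n.

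**Figure D1:**
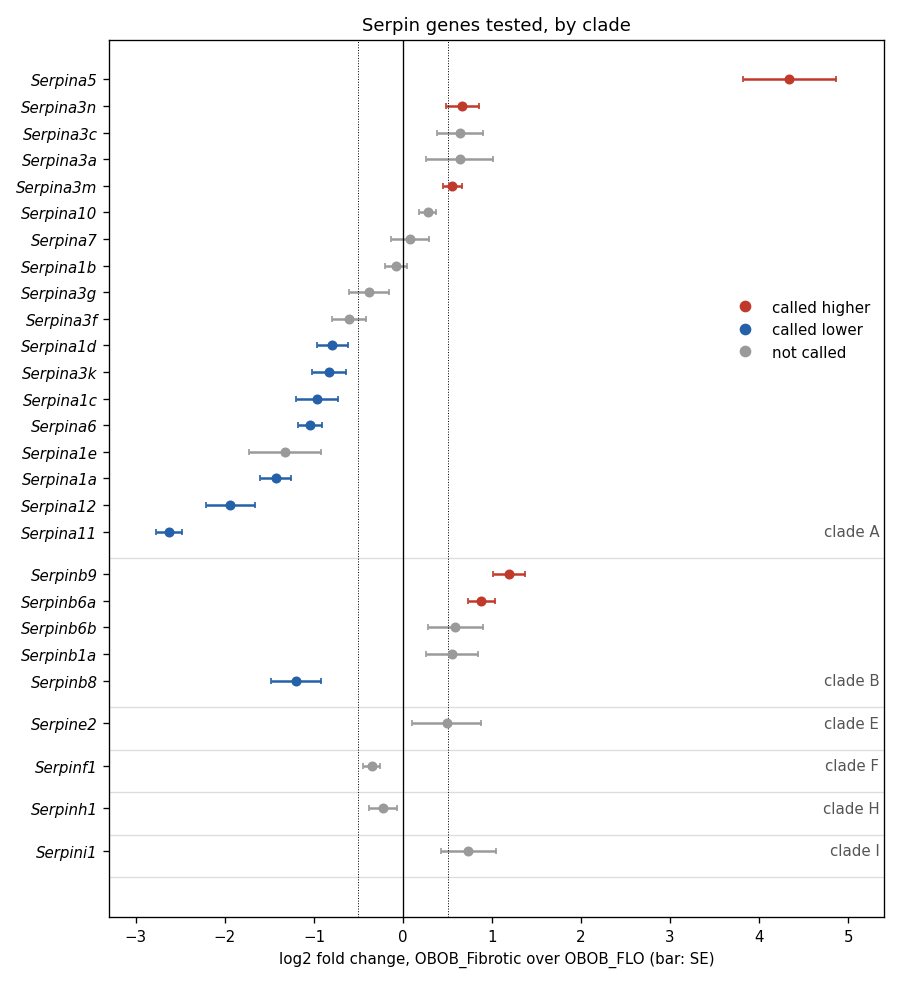
Log2 fold change of 27 of the 28 tested serpin genes (points) with SE (bars), fibrotic over FLO, grouped by clade. Dotted lines mark the fold threshold of 0.5 in either direction. Serpina5 stands far to the right at 4.34, Serpina11 lies farthest left at −2.63, and the points of clades E, F, H and I are gray, that is not called.

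Serpin transcripts took a smaller part of the fibrotic libraries. All 35 members held 1.24% to 1.66% of counts in the 6 fibrotic libraries and 1.75% to 2.34% in the 6 FLO libraries, with no overlap (1.51 ± 0.16% and 1.92 ± 0.22%, SD, n = 6 each). With mitochondrial genes left out of the denominator the shares were 1.61% and 2.10%. Most of this was Serpina1. Its copies held 0.848% to 1.27% of fibrotic and 1.34% to 1.65% of FLO counts. The Serpina3 copies held 0.270% to 0.324% and 0.292% to 0.581%, with FLO replicate 5 alone above 0.343%. Members outside these copies held 0.104 ± 0.00375% and 0.117 ± 0.00495% (SD, n = 6 each), which did not overlap between groups.

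The Serpina1 copies are the mouse relatives of antitrypsin, a plasma inhibitor of neutrophil elastase. Their stretches in the part that codes for the reactive center loop differ, as shown above, and their targets were not measured. Of the 5 copies, 4 were the most abundant members per length. Per kilobase of the longest transcript, Serpina1b led all 35 members, at a mean of 3529 CPM per kb in fibrotic and 3723 CPM per kb in FLO libraries. Serpina1c, Serpina1d, Serpina1a and Serpina3k followed it, and these 5 were the members over 1000 CPM per kb in their mean over both groups. The order of the middle copies was not separated by their spread. In CPM, the FLO libraries held 2766 to 4419 for Serpina1c, 2456 to 3437 for Serpina1d and 2512 to 3115 for Serpina1a.

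Serpina1a (chr12:103853589-103863562, minus strand, in mm10) ran from 623 to 1520 CPM in fibrotic libraries (median 973) and from 2512 to 3115 CPM in FLO libraries (median 2656). Every fibrotic library was below every FLO library. The log2FC was −1.43 ± 0.17 (SE), with an edgeR adjusted p of 6.02e-06. Serpina1c ran from 660 to 2272 CPM (median 1735) against 2766 to 4419 CPM (median 2899), again without overlap (log2FC −0.97 ± 0.24 SE, edgeR adjusted p = 0.00309). Its lowest value was that of fibrotic replicate 4. Without that library the log2FC was −0.80, and with no low-count filter the call was lost at an edgeR adjusted p of 0.0110. Serpina1d ran from 966 to 2228 CPM (median 1825) against 2456 to 3437 CPM (median 2899), with every fibrotic library lower (log2FC −0.79 ± 0.17 SE, edgeR adjusted p = 0.00143).

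Serpina1b did not pass the test. It ran from 4817 to 7708 CPM in fibrotic libraries (median 6100) and from 6150 to 7151 CPM in FLO libraries (median 6408). The groups overlapped, with 3 fibrotic libraries above and 3 below the FLO median (log2FC −0.08 ± 0.13 SE, edgeR adjusted p = 0.631, and log2FC −0.15 to −0.0043 with 1 library left out). Serpina1e, the rarest copy, ran from 6.74 to 22.9 CPM (median 14.0) against 19.8 to 82.7 CPM (median 26.6). All 6 fibrotic libraries were below the FLO median, but the ranges overlapped and the call was missed (log2FC −1.33 ± 0.40 SE, edgeR adjusted p = 0.0149). Its highest value, 82.7 CPM in FLO replicate 5, weighs on the fold. Without that library the log2FC was −0.88 (edgeR adjusted p = 0.0200), while DESeq2 on all 12 libraries called the gene at an adjusted p of 0.00503.

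Summed over the 5 copies, Serpina1 ran from 7073 to 13116 CPM in fibrotic libraries (median 11411) and from 14140 to 17878 CPM in FLO libraries (median 15107). The groups did not overlap, and the sum was called lower (log2FC −0.55 ± 0.14 SE, edgeR adjusted p = 0.00489). This call is near both thresholds. It was lost when 1 library was left out, at log2FC −0.54 without FLO replicate 1, −0.50 without FLO replicate 5, −0.45 without fibrotic replicate 4 and −0.49 without fibrotic replicate 5, with edgeR adjusted p values of 0.0104, 0.0136, 0.00385 and 0.0138.

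The makeup of the Serpina1 counts shifted toward Serpina1b, which itself was not called (log2FC −0.08, edgeR adjusted p = 0.631). Its larger share goes with the lower values of Serpina1a, Serpina1c and Serpina1d. Shares of a family add up to a whole, so their tests are not independent, here and for Serpina3 below. They also depend on how shared reads were divided. Serpina1b held 39.8% to 45.1% of Serpina1 counts in FLO libraries and 50.3% to 68.1% in fibrotic libraries. Every fibrotic library was above every FLO library (means 42.6% and 59.4%, two-sided exact permutation p = 0.00216, the smallest that 6 against 6 allows, and 0.00433 adjusted over the 12 copy shares tested). Serpina1a held 16.7% to 18.6% in FLO and 7.46% to 13.2% in fibrotic libraries, also without overlap (exact permutation p = 0.00216, adjusted 0.00433). Serpina1d went from a mean of 18.7% to 15.6% (exact permutation p = 0.00216, adjusted 0.00433) and Serpina1c from 20.8% to 15.3% (exact permutation p = 0.00866, adjusted 0.0148). Serpina1e, at 0.223% and 0.132%, did not pass (exact permutation p = 0.0844, adjusted 0.101).

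**Figure D2:**
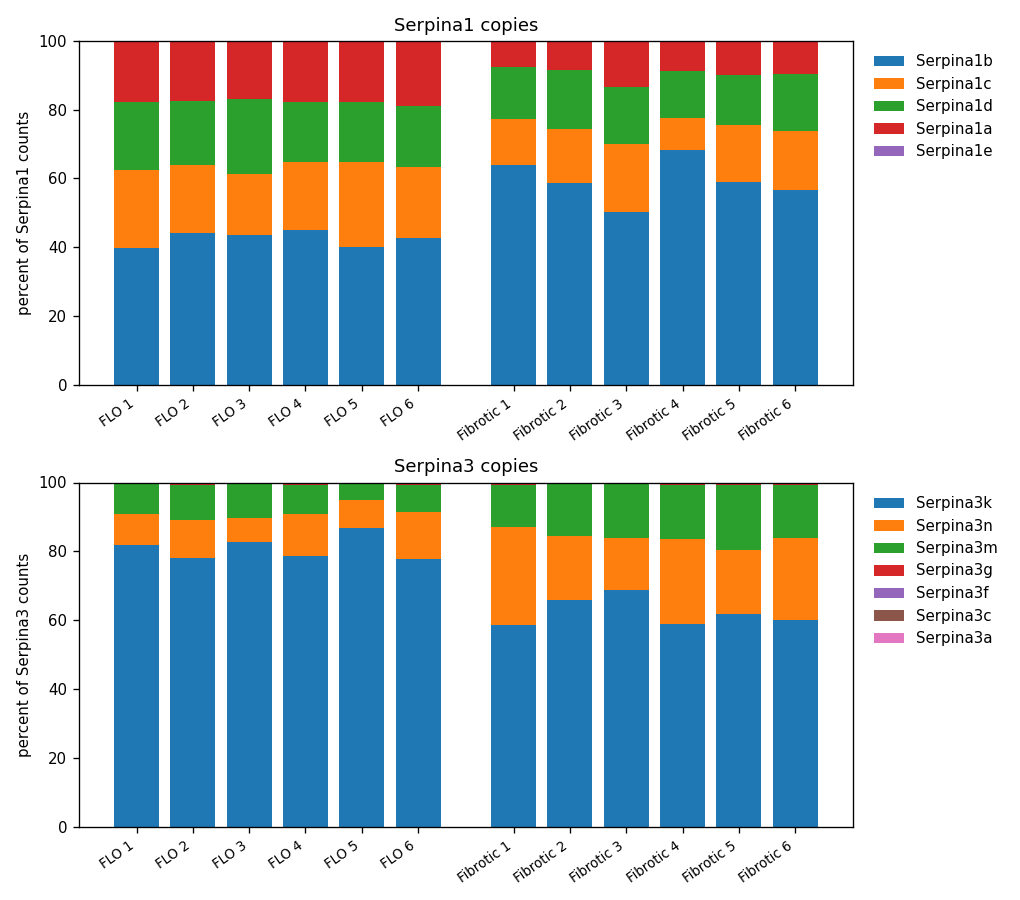
Percent of Serpina1 counts (top) and of Serpina3 counts (bottom) held by each copy in each library, stacked to 100. In the 6 fibrotic libraries the Serpina1b segment reaches 50.3% to 68.1% and the Serpina3k segment 58.5% to 68.9%, against 39.8% to 45.1% and 77.8% to 86.8% in the 6 FLO libraries. Copies under 1% are hardly visible at this scale.

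Serpina1a was called lower (log2FC −1.43) and Serpina1b was not called (log2FC −0.08). The windows at their RefSeq gene starts are shown because they are much alike in sequence. A part of these windows in the counts was not tested. The windows span 250 bases before to 50 bases after the start given by RefSeq (GRCm38.p6, the mm10 assembly). They are chr12:103863570-103863869 for Serpina1a and chr12:103738140-103738439 for Serpina1b, both on the minus strand. These starts are not the ends of the GENCODE M21 spans. The window of Serpina1a lies wholly outside its span, which ends at 103863562. That of Serpina1b lies inside its span, chr12:103728156-103830373. Capitals mark bases that mismatch or face a gap in the alignment of the pair.
Serpina1a: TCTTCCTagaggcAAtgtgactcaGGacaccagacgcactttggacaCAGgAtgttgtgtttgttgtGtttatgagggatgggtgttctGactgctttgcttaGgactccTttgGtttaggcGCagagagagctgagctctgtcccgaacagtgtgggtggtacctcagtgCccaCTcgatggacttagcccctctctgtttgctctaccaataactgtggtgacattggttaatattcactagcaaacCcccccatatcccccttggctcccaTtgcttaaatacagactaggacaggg
Serpina1b: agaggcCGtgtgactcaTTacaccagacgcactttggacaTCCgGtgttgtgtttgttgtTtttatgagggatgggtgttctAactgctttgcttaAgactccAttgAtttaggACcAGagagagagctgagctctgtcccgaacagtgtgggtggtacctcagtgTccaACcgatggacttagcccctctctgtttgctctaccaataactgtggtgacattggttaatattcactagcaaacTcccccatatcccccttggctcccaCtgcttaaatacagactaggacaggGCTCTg
Aligned, the windows had 273 identical positions, 20 mismatches and 14 gapped positions, or 88.9% identity. Over the stretch just before the start the copies were almost letter for letter the same, and most differing bases lay farther upstream. Against Serpina1c, the window of Serpina1a was identical at 91.2% of positions and that of Serpina1b at 91.4%.

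The Serpina3 copies moved in both directions. They are the mouse relatives of antichymotrypsin, a secreted acute phase inhibitor. Serpina3k (chr12:104338486-104346144, plus strand), the most abundant, ran from 1426 to 2030 CPM in fibrotic libraries (median 1748) and from 2401 to 5474 CPM in FLO libraries (median 2676). The groups did not overlap and the gene was called lower (log2FC −0.83 ± 0.19 SE, edgeR adjusted p = 0.00179). FLO replicate 5 stood alone at 5474 CPM, with the next FLO library at 2772 CPM. Without it the log2FC was −0.59 and the call held (edgeR adjusted p = 0.000586).

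Serpina3n, which inhibits granzyme B among other proteases, ran from 445 to 764 CPM in fibrotic libraries (median 559) and from 228 to 513 CPM in FLO libraries (median 356). Every fibrotic library was above the FLO median, but the ranges overlapped (log2FC 0.67 ± 0.19 SE, edgeR adjusted p = 0.00858). The call was fragile. It was lost in 8 of 12 fits that left out 1 library, with edgeR adjusted p values up to 0.0219. These were the fits without FLO replicates 1, 2, 3 or 4 or without fibrotic replicates 1, 2, 4 or 6, and without FLO replicate 3 the values were 0.56 and 0.0143. Serpina3m ran from 331 to 524 CPM (median 439) against 262 to 321 CPM (median 287), with every fibrotic library higher (log2FC 0.55 ± 0.11 SE, edgeR adjusted p = 0.000541). Without fibrotic replicate 5 its log2FC was 0.50, just under the fold threshold, at an edgeR adjusted p of 0.00136.

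The other 4 tested Serpina3 copies were rare and not called. Serpina3g ran from 6.72 to 11.8 CPM in fibrotic and 7.19 to 20.6 CPM in FLO libraries (log2FC −0.38 ± 0.22 SE, edgeR adjusted p = 0.170), and without FLO replicate 5 the log2FC was −0.19. Serpina3f ran from 1.68 to 3.34 CPM against 2.995 to 4.86 CPM. All 6 fibrotic libraries were below its FLO median (log2FC −0.61 ± 0.19 SE, edgeR adjusted p = 0.0154), and both DESeq2 and the fit without fibrotic replicate 6 called it, at adjusted p values of 0.00635 and 0.00971. Serpina3c, at 1.24 to 2.91 CPM against 0.813 to 2.37 CPM, had a log2FC of 0.64 ± 0.26 (SE, edgeR adjusted p = 0.0475). Serpina3a, at 0.539 to 2.57 CPM against 0.556 to 1.54 CPM, had a log2FC of 0.63 ± 0.37 (SE, edgeR adjusted p = 0.165), which was 0.34 without fibrotic replicate 4.

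The division of reads among the copies bears less on their sum. Summed Serpina3 copies ran from 2416 to 2993 CPM in fibrotic libraries and from 3068 to 6305 CPM in FLO libraries, and the sum was not called (log2FC −0.44 ± 0.17 SE, edgeR adjusted p = 0.0361). Without FLO replicate 5 the log2FC was −0.23 (edgeR adjusted p = 0.0665). As a share of unscaled library counts, the groups overlapped, at 0.270% to 0.324% and 0.292% to 0.581% (two-sided exact permutation p = 0.160). The CPM were scaled by TMM factors, which were 0.965 to 1.20 in fibrotic and 0.913 to 0.963 in FLO libraries. Within the sum, Serpina3k went from a mean of 81.0% in FLO to 62.3% in fibrotic libraries, Serpina3n from 10.2% to 21.6% and Serpina3m from 8.30% to 15.5%. None of these 3 shares overlapped between groups (exact permutation p = 0.00216 for each, adjusted 0.00433). Serpina3k and Serpina3m are the closest pair in sequence and overlap in the annotation, whereas Serpina3n had 93.1% unique 50-base words. Of the rare copies, Serpina3c went from 0.0403% to 0.0850% (exact permutation p = 0.0108, adjusted 0.0162), and Serpina3a from 0.0229% to 0.0495% (exact permutation p = 0.0476, adjusted 0.0635). The shares of Serpina3g and Serpina3f did not pass (exact permutation p = 0.738 and 0.286).

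**Figure D3:**
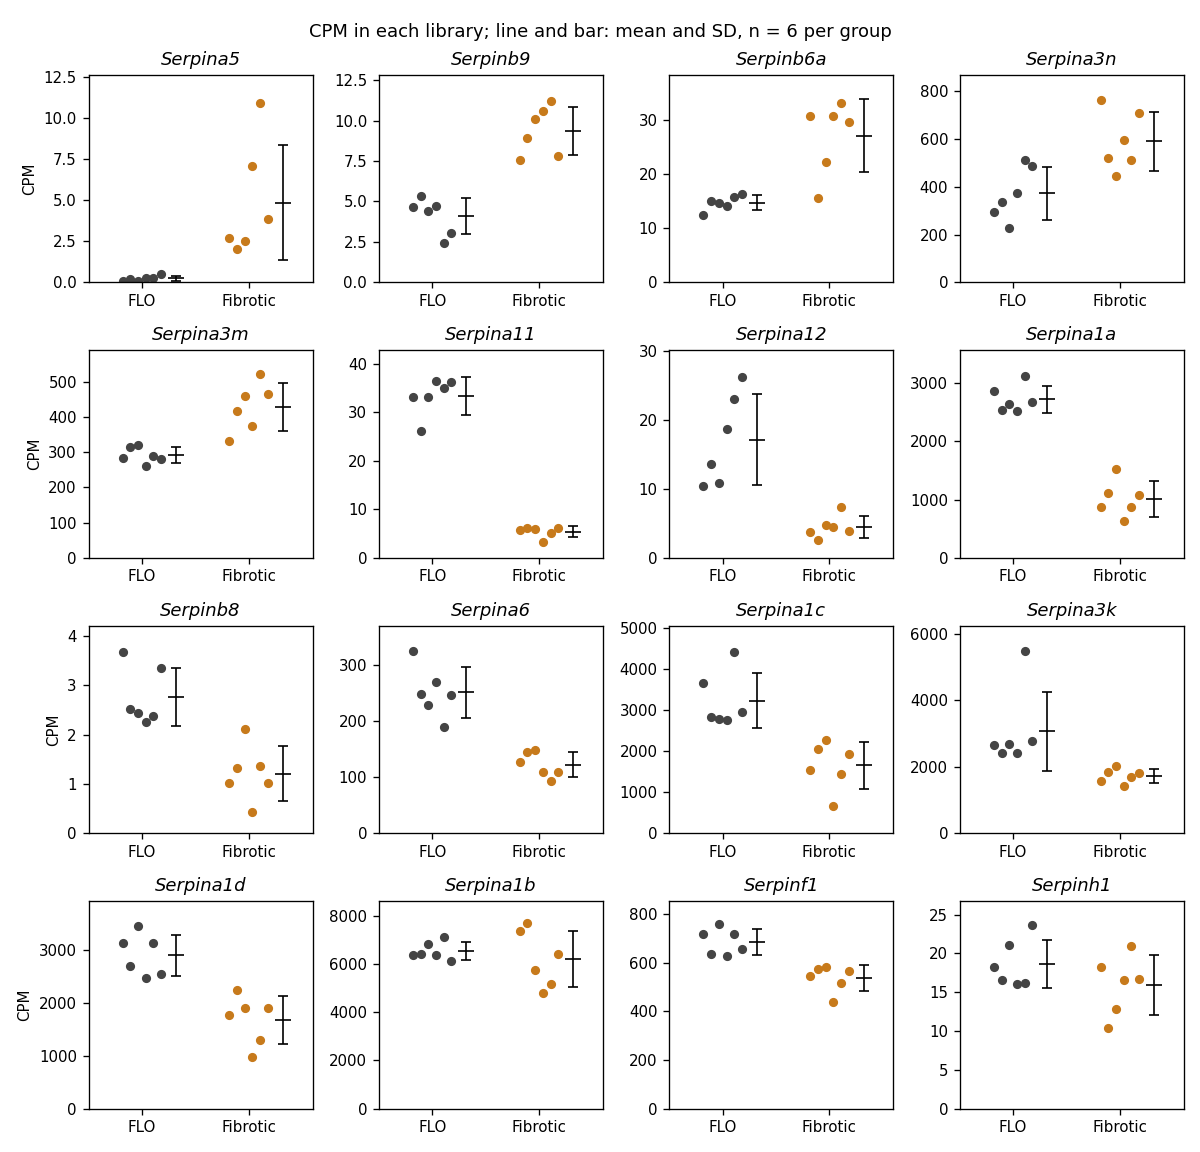
CPM in each of the 12 libraries (points) for the 13 called members and for Serpina1b, Serpinf1 and Serpinh1, with the group mean and SD beside the points. Every vertical axis starts at 0. Serpina3k shows 1 FLO library at 5474 CPM above the rest, and Serpina5 lies near 0 in all FLO libraries and between 2.04 and 10.9 CPM in fibrotic libraries.

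The largest rise among the 28 tested members was that of Serpina5. Its product, protein C inhibitor, blocks activated protein C and other serine proteases of coagulation and fibrinolysis. It ran from 2.04 to 10.9 CPM in fibrotic libraries (median 3.26, 40 to 217 counts) and from 0.0856 to 0.508 CPM in FLO libraries (median 0.233, 2 to 10 counts). The lowest fibrotic library was above the highest FLO library. With so few FLO counts, the gene passed the low-count filter through the fibrotic libraries, where it is high. The direction of its difference was thus largely fixed by that filter and is given as a description. Serpina5 was not tested when at least 10 counts were required in each library. The log2FC was 4.34 ± 0.53 (SE, edgeR adjusted p = 9.97e-06) and the ratio of the group means 20.6. The SD of 3.49 CPM around the fibrotic mean of 4.85 CPM came mostly from replicates 4 and 5, at 7.07 and 10.9 CPM. Without replicate 5 the log2FC was 3.93. Its window is shown because it was the only one among the members with the C/EBP palindrome TTGCGCAA, in capitals (chr12:104100863-104101162, plus strand, RefSeq GRCm38.p6).
Serpina5: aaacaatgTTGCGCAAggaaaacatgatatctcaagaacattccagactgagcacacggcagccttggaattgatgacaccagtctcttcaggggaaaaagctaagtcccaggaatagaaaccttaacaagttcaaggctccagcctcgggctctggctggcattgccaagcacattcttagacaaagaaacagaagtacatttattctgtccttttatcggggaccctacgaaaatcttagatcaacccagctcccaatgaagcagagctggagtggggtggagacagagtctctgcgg
The palindrome began 242 bases before the start and occurred in 0.183% of all windows. Cebpb, a C/EBP factor of the acute phase, was at 81.1 ± 17.5 CPM in fibrotic and 41.1 ± 8.23 CPM in FLO libraries (SD, n = 6 each; log2FC 0.98, edgeR adjusted p = 6.26e-05). Of the other C/EBP factors in the lists, neither Cebpa (log2FC 0.21, edgeR adjusted p = 0.132) nor Cebpd (log2FC 0.13, edgeR adjusted p = 0.660) was called. Cebpa was the more abundant, at a mean of 428 CPM in fibrotic and 370 CPM in FLO libraries. A match of letters does not show binding, and a part of these factors in the Serpina5 values was not tested.

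The largest fall among the tested members was that of Serpina11. It ran from 3.18 to 6.22 CPM in fibrotic libraries (median 5.80) and from 26.0 to 36.4 CPM in FLO libraries (median 34.1). The groups were far apart, and the log2FC of −2.63 ± 0.14 (SE, edgeR adjusted p = 3.36e-09) stayed between −2.69 and −2.51 whichever library was left out. The part of reads shared with Gm28577 in this fall was not tested. The first window of Serpina11 in the table is given with the letters TTCCAGGAA, a match to the STAT3-type site TTCCNGGAA, in capitals (chr12:103989908-103990207, minus strand, RefSeq GRCm38.p6).
Serpina11: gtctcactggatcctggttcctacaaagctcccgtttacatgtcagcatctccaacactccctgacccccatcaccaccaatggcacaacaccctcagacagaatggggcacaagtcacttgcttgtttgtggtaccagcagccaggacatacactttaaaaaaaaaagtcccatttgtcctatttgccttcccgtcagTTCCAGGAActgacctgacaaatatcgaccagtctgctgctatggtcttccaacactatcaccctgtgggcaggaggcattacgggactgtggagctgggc
The site began 51 bases before the start. Among the 28 members with a window, Serpina11 and Serpinb6a held it, 1 called lower and 1 called higher, as did 1.15% of all windows. The transcript Stat3 was at 93.3 ± 17.9 CPM in fibrotic and 118 ± 15.7 CPM in FLO libraries (SD, n = 6 each; log2FC −0.33, edgeR adjusted p = 0.0317).

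Other motifs were searched on both strands of the same windows. The FOXA site TGTTTAC (3.65% of all windows), the HNF4 site CAAAGTCCA (0.475%) and the cAMP response element TGACGTCA (1.79%) were in none of the members' windows. The AP-1 site TGANTCA (7.81%) was in those of Serpina1a to Serpina1d, Serpinb7 and Serpinb8. The STAT5-type site TTCNNNGAA (8.30%), which every TTCCNGGAA also matches, was in those of Serpina11, Serpina3f, Serpina3g, Serpina3i and Serpinb6a. The glucocorticoid receptor core site AGAACA (19.0%) was in those of 16 members, and among the called ones these included Serpina1a, Serpina1c, Serpina1d, Serpina3n, Serpina5 and Serpinb8.

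Serpina12 (chr12:104028769-104044443, minus strand) encodes vaspin, an adipokine that inhibits kallikrein 7. It ran from 2.60 to 7.40 CPM in fibrotic libraries (median 4.17) and from 10.4 to 26.2 CPM in FLO libraries (median 16.2). The FLO libraries were widely spread, yet all were above every fibrotic library (log2FC −1.94 ± 0.28 SE, edgeR adjusted p = 4.75e-05). Serpina10 encodes the protein Z-dependent inhibitor of coagulation factor Xa. It ran from 118 to 176 CPM (median 157) against 115 to 134 CPM (median 126) and was not called (log2FC 0.28 ± 0.10 SE, edgeR adjusted p = 0.0225). Its cofactor protein Z (Proz) went the other way, from 129 ± 21.5 CPM in FLO to 68.7 ± 17.8 CPM in fibrotic libraries (SD, n = 6 each; log2FC −0.91, edgeR adjusted p = 0.000419).

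Of the 2 hormone carriers, Serpina6 was called lower and Serpina7 was not called, and the difference between them was not tested. Serpina6 (chr12:103646630-103657212, minus strand), corticosteroid-binding globulin, ran from 92.5 to 149 CPM in fibrotic libraries (median 118) and from 189 to 325 CPM in FLO libraries (median 248). Every fibrotic library was lower, and the fall was called in every alternative (log2FC −1.04 ± 0.14 SE, edgeR adjusted p = 1.55e-05). Serpina7, thyroxine-binding globulin, lies on the X chromosome. It ran from 46.5 to 72.7 CPM (median 55.1) against 25.3 to 79.5 CPM (median 57.6). The groups overlapped and no change passed the test (log2FC 0.08 ± 0.21 SE, edgeR adjusted p = 0.775). Its lowest value was that of FLO replicate 3, the library with Xist. Without that library the log2FC turned to −0.07.

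On chromosome 12 the members form 1 long row, and calls of opposite sign were neighbors in it. Of 21 members there, 17 were tested, 3 called higher and 7 lower. Between Serpina6 and Serpina12 the tested members in the row were Serpina1b, Serpina1d, Serpina1a, Serpina1c, Serpina1e and Serpina11, and none of them had a log2FC above 0. Serpina5 follows Serpina12 directly in the row of members, with log2FC values of 4.34 and −1.94. The direction of Serpina5 was largely fixed by the low-count filter, so this pair is given as a description. At the far end Serpina3k lies beside Serpina3m and Serpina3n, which rose. Serpina3k lies within the span of Serpina3m, and how reads shared by these copies were divided is not known. Of the 6 members on chromosome 13, all of clade B, 4 were tested, 2 were called higher and none lower.

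**Figure D4:**
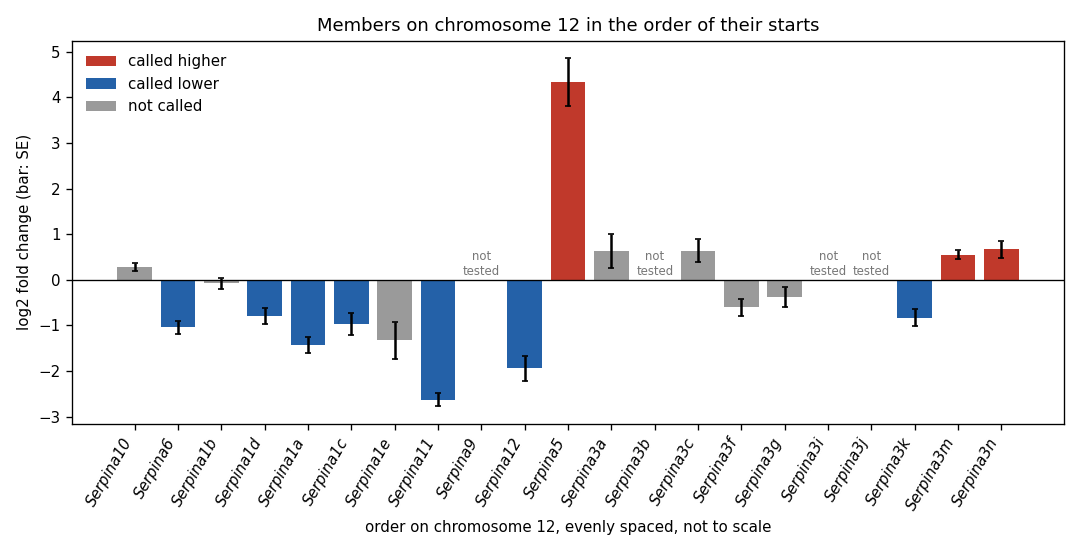
Log2 fold change with SE of the members on chromosome 12, in the order of their starts and evenly spaced, not to scale. The bar of Serpina5 (4.34), whose direction was largely fixed by the low-count filter, stands beside that of Serpina12 (−1.94). The 4 members that did not pass this filter have no bar.

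Clade B serpins protect cells from proteases of their own granules and lysosomes. Serpinb9 (chr13:33003250-33017957, plus strand), an inhibitor of granzyme B, ran from 7.56 to 11.2 CPM in fibrotic libraries (median 9.497) and from 2.43 to 5.34 CPM in FLO libraries (median 4.53). Every fibrotic library was higher (log2FC 1.19 ± 0.18 SE, edgeR adjusted p = 5.45e-05). Granzyme B itself (Gzmb) was at 0.443 ± 0.215 CPM in fibrotic and 0.391 ± 0.149 CPM in FLO libraries (SD, n = 6 each) and did not pass the low-count filter. Serpinb6a (chr13:33917918-34002794, minus strand), an inhibitor of cathepsin G, ran from 15.6 to 33.1 CPM (median 30.2) against 12.4 to 16.4 CPM (median 14.8). Fibrotic replicate 2, at 15.6 CPM, was within the FLO range, and the other fibrotic libraries were above it (log2FC 0.88 ± 0.15 SE, edgeR adjusted p = 0.000204). Cathepsin G (Ctsg) was at 0 counts in all 12 libraries.

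Serpinb8 was the 1 tested clade B member that fell. It was low in every library, at 0.421 to 2.10 CPM in fibrotic (median 1.17) and 2.25 to 3.66 CPM in FLO libraries (median 2.48), without overlap (log2FC −1.20 ± 0.28 SE, edgeR adjusted p = 0.00241). With 9 counts in 1 library it was not tested when at least 10 counts were required in each. Serpinb1a, an inhibitor of neutrophil elastase, ran from 20.4 to 58.4 CPM against 13.2 to 35.8 CPM and did not pass (log2FC 0.55 ± 0.29 SE, edgeR adjusted p = 0.129). Without fibrotic replicate 2 its log2FC was 0.34. Serpinb6b, at 1.38 to 5.34 CPM against 1.64 to 3.40 CPM, did not pass either (log2FC 0.59 ± 0.31 SE, edgeR adjusted p = 0.126).

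Clade B members were called in both directions. Most tested markers of macrophages and bile duct cells were called higher in the fibrotic libraries, as Serpinb9 and Serpinb6a were. Of 8 Kupffer cell and macrophage markers, 6 were called higher and none lower (median log2FC 0.76), with a summed level of 242 to 504 CPM in fibrotic and 185 to 225 CPM in FLO libraries. Of 7 tested cholangiocyte markers, 5 were called higher and none lower (median log2FC 1.35), with 82.9 to 282 CPM against 47.9 to 90.0 CPM, which overlap. Most of this sum was Spp1, at a mean of 122 CPM in fibrotic and 60.5 CPM in FLO libraries. Krt19 (log2FC 1.38, edgeR adjusted p = 0.0138) and Krt7 (log2FC 1.17, edgeR adjusted p = 0.0357) were not called. Of 10 neutrophil markers 2 were tested and 1, Csf3r, was called higher, with 3.36 to 8.14 CPM against 2.19 to 6.04 CPM. Of 9 lymphocyte and NK markers 1 was tested and none called, with 1.92 to 5.92 CPM against 2.19 to 5.69 CPM. No marker of these 4 lists was at 0 in all libraries. The part of these cells in the clade B values was not tested. Hepatocyte markers moved in both directions. Of 8, 1 was called higher, Cps1 (log2FC 0.73), and 2 lower, Apoa1 (log2FC −1.68) and Pck1 (log2FC −1.08), with a median log2FC of −0.35. Their summed levels, given above, overlapped between groups. Most of the sum was Alb, at a mean of 52922 CPM in fibrotic and 65410 CPM in FLO libraries. The part of hepatocytes in the lower clade A values was not tested. Of 8 endothelial markers 1 was called lower, with a summed level of 183 to 232 CPM against 250 to 280 CPM. Of 6 pancreatic acinar markers 1 was tested, Cela2a, and called higher, while Cpa1 and Pnlip were at 0 in all libraries. Cela2a was at a mean of 2.26 CPM in fibrotic and 0.00713 CPM in FLO libraries. It passed the low-count filter through the group where it is high, so its direction was largely fixed by that filter.

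The members of the remaining clades had no call. Serpinf1 (clade F), pigment epithelium-derived factor, came closest. It ran from 438 to 584 CPM in fibrotic libraries (median 557) and from 629 to 760 CPM in FLO libraries (median 688). All fibrotic libraries were lower, but the fold was under the threshold (log2FC −0.35 ± 0.09 SE, edgeR adjusted p = 0.00507). Serpinh1 (clade H), the collagen chaperone Hsp47, ran from 10.3 to 20.99 CPM (median 16.6) against 16.1 to 23.7 CPM (median 17.4), with overlap (log2FC −0.23 ± 0.15 SE, edgeR adjusted p = 0.235). The log2FC was −0.13 without fibrotic replicate 2 and −0.15 without FLO replicate 6.

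Serpine2 (clade E), protease nexin 1, ran from 0.647 to 3.93 CPM against 0.547 to 1.37 CPM. The medians were alike, at 1.16 and 1.17 CPM, and fibrotic replicate 5, at 3.93 CPM, stood apart from the other libraries (log2FC 0.49 ± 0.39 SE, edgeR adjusted p = 0.306). Without it the log2FC turned to −0.02. Serpini1 (clade I), neuroserpin, an inhibitor of tissue plasminogen activator, ran from 0.453 to 1.02 CPM against 0.237 to 0.632 CPM and did not pass (log2FC 0.73 ± 0.31 SE, edgeR adjusted p = 0.0579). Its clade neighbor Serpini2 was at 0 counts in all 12 libraries.

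The 7 remaining members were too low to test. Of these, 3 had counts almost only in fibrotic libraries. Serpina9 had 1 to 7 counts in each fibrotic library and 0 in each FLO library. Serpina3j had 2 to 11 counts against 0 to 1, and Serpinb9b 2 to 44 counts against 0 to 1. The groups did not overlap for these 3 genes, but the counts are few. Serpina9 had counts in 6 libraries and Serpina3j in 7, all or all but 1 of them fibrotic, and Serpinb9b had counts in 9. They reached the 6 libraries required of a member through the group where they are high, so the direction of their difference was largely fixed by that rule and is given as a description. All 3 were past the threshold by DESeq2 (adjusted p 0.00427 for Serpina9, 0.000179 for Serpina3j and 0.000366 for Serpinb9b) and by edgeR with no low-count filter (0.00426, 0.000599 and 0.000563). These tests are no support, since the same counts made the genes members. No fold is given for these 3 genes, since it would rest on counts of 0. Fibrotic replicate 4 held the 44 counts of Serpinb9b, where the other fibrotic libraries held 2 to 6. The same library held 50 of 54 counts of Serpinb9e, 23 of 25 of Serpinb9f and 14 of 18 of Serpinb1b, which are clade B genes with counts in too few libraries to be members. They were named after their values were seen. Serpina3i, Serpina3b, Serpinb1c and Serpinb7, at 0 to 39 counts in any library, overlapped between groups.

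The proteases that serpins restrain, their cofactors and the enzymes that act beside the noninhibitory members were followed as lists. Of all 13416 genes tested, 15.9% were called higher and 14.0% lower. These shares are to be set beside the counts of each list, the marker lists included. Of 18 target proteases, 12 were tested, 2 were called higher and 4 lower (median log2FC −0.21). Tissue plasminogen activator (Plat), the target of Serpini1, was at 4.20 ± 3.01 CPM in fibrotic and 1.27 ± 0.550 CPM in FLO libraries (SD, n = 6 each; log2FC 1.72, edgeR adjusted p = 0.00783). Prss8 was also higher (log2FC 1.20), whereas plasma prekallikrein (Klkb1, log2FC −2.02), protein C (Proc, log2FC −0.87), prothrombin (F2, log2FC −0.68) and factor X (F10, log2FC −0.56) were lower. The summed level of the 18 genes was 2643 to 3979 CPM in fibrotic and 4471 to 5007 CPM in FLO libraries, without overlap. Of 7 cofactors and uptake receptors, vitronectin (Vtn, log2FC −1.03) and protein Z were lower and none higher (median log2FC −0.25).

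Of 11 genes of glucocorticoid and thyroid hormone handling, 1 was called higher and 1 lower (median log2FC −0.18), beside the fall of Serpina6. The gene called higher was the deiodinase Dio1 (log2FC 1.08). The glucocorticoid receptor Nr3c1, at 40.0 ± 3.42 CPM against 49.0 ± 5.60 CPM (SD, n = 6 each), was not called. Of 12 collagen folding genes, which work beside Serpinh1, none was called higher, and Mia3 (log2FC −0.57) and Kdelr2 (log2FC −0.55) were called lower (median log2FC −0.31). Of 18 acute phase genes, 5 were called higher and 3 lower (median log2FC 0.20). Orm2 (log2FC 1.09) and Hpx (log2FC 1.02) rose, as Serpina3n did, while Saa2 (log2FC −1.91) and Itih4 (log2FC −1.04) fell, as Serpina3k did. Of 10 hepatocyte transcription factors, Onecut1 (log2FC −0.89) and Stat5b (log2FC −0.62) were lower and none higher (median log2FC −0.10). Of 5 serpin superfamily genes outside the rule, Serping1, the C1 inhibitor, was lower (log2FC −1.48), and Serpinc1, Serpind1, Serpinf2 and Agt were not called.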

How the data were processed

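Livers of 12 ob/ob mice were profiled by poly(A)-selected RNA-seq, and samples were grouped by their titles. The table deposited by the authors holds counts, whole numbers for each Ensembl gene identifier that were not normalized. The submitters' processing notes name mm10, bcl2fastq and STAR 2.7.3a. Quantification with PISCES is named in the study's methods, which state no mouse annotation, and the use of strand in counting is not given in the sources used here. The sums over copies and the word counts bear on how shared reads may have been divided.

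Symbols matched 51745 identifiers, and 0.0587% of all counts lay on unmatched ones. Groups were compared gene by gene in edgeR 4.0.16 (R 4.3.3), by a robust quasi-likelihood fit after TMM scaling and filterByExpr, with Benjamini-Hochberg adjustment over 13416 genes and no covariates. The threshold was an adjusted p of 0.01 with an absolute log2FC over 0.5. The SE is the absolute log2FC divided by the square root of F. CPM were scaled to TMM library sizes. Depth was 17815568 to 24814263 counts per library, so that a member at a few counts carries a large counting error, which the SDs between libraries include. Shares were compared by two-sided exact permutation tests of the library labels. Libraries are separate mice, and every pair within a group differed by more than sampling noise (smallest chi-square per degree of freedom 10.3).

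The members, the gene lists and the motifs were chosen with earlier results of these data known. Named with values were the 5 largest rises and 5 largest falls among called members with a mean CPM of at least 1, all Serpina1 and Serpina3 copies, and named hormone carriers, matrix and protease genes; of each list, up to 4 called genes. Other genes of these lists named in the text (F2, F10, Gzmb, Ctsg, Cebpa, Cebpb, Cebpd, Stat3, Nr3c1, Alb, Spp1, Krt19, Krt7, Col1a1, Col3a1) were chosen after their values were seen. Alternatives were RLE and upper quartile normalization, a filter of at least 10 counts in each library, no filter, DESeq2 1.42.0, limma-voom (limma 3.58.1), a replicate block, an adjusted p of 0.05 without a fold threshold, summed copies, and leaving out each library. GENCODE M21 gave biotypes, positions and transcripts. Coding sequences, read as the longest open reading frames, were aligned with Biopython 1.88. Windows at gene starts, from RefSeq GRCm38.p6, were found for 28 of 35 members and not, among others, for Serpina3k, Serpina3m, Serpina6, Serpina9, Serpina10 and Serpinb1a. Values of 1 member, which is included in the counts and sums, and of some list genes are not reported here.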

Additional observations from a re-analysis of the deposited data

Results flagged for a closer look

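In each group of 6 libraries, the extreme value's distance to the next one was set against the full spread (Dixon's ratio). Of 90 ratios, 9 passed the 95% limit for 6 samples, where chance flags about 1 group in 20, or 4.5 here. FLO replicate 5 was the highest of its group for Serpina3k (ratio 0.826), for the summed Serpina3 copies (0.792), for the share of counts held by Serpina3 copies (0.826) and by all serpin genes (0.731), and for the share of Serpina1e among Serpina1 copies (0.661). Fibrotic replicate 4 was the lowest for Serpina11 (0.728) and Serpina1c (0.639). FLO replicate 2 was the lowest for Serpina11 (0.724), and FLO replicate 1 the lowest for Serpine2 (0.664). Over all 28 tested members, fibrotic replicate 4 was the lowest of its group for 10 and FLO replicate 5 the highest for 10. Several of these values share the same counts and are not independent.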

How the results depend on the processing

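Of the 13 calls, 10 held in every alternative that gave a value, and those of Serpina3n, Serpina3m and Serpina1c were lost in at least 1. Members called higher numbered 8 by DESeq2, with Serpina9, Serpina3j and Serpinb9b, which the low-count filter had removed and which became members through their fibrotic counts, so that these additions are no support, and 3 with copies summed, and members called lower 5 with copies summed. In clade A, 5 were called higher by DESeq2 and 5 at an adjusted p of 0.05 without a fold threshold. When at least 10 counts were required in every library, Serpina5 and Serpinb8 were not tested. Clade A then had 2 called higher and clade B 0 called lower. The summed Serpina3 copies (log2FC −0.44) passed at 0.05 without a fold threshold, but not with a replicate block (−0.39, edgeR adjusted p = 0.0565) or without FLO replicate 5 (−0.23, 0.0665) or fibrotic replicates 1, 2, 4 or 5 (0.0506 to 0.0621). Serpina3n was not called under RLE (0.65), upper quartile (0.64) or no low-count filter (0.67).

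Replicate numbers do not pair the libraries. The correlations of same-numbered deviations ran from −0.16 to 0.10, and 0 fibrotic libraries correlated best with their own number. With the number as a replicate block, the summed Serpina1 copies had a log2FC of −0.57 (edgeR adjusted p = 0.0106) and lost their call, while the other serpin calls were unchanged.

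With each library left out in turn, the log2FC of the summed Serpina1 copies ran from −0.62 to −0.45. The difference in share ran from −0.107 to −0.0421 percentage points for Serpina1e, from 0.0152 to 0.0329 for Serpina3a and from −0.0104 to 0.0395 for Serpina3g, whose sign turned without fibrotic replicate 4 (−0.010) or FLO replicate 3 (−0.0068). The log2FC of Serpine2 ran from −0.024 (without fibrotic replicate 5, turned in sign) to 0.65, and that of Serpina7 from −0.069 (without FLO replicate 3) to 0.23, also turned without fibrotic replicate 5 (−0.0021). No scaling moved the median of all genes by over 0.1 on the log2 scale. Depth limits the 7 members that were not tested.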
